A study of Homo sapiens with 4 samples.

Results

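Members of the miR-99 and miR-125 families were followed through 6 assays of a TaqMan microRNA array card, chosen by name from the 377 human miRNA assays on it: hsa-miR-99a, hsa-miR-99b, hsa-miR-100, hsa-miR-125a-3p, hsa-miR-125a-5p and hsa-miR-125b. The material came from RPMI8226, an established human multiple myeloma line, kept for 24 h at 20% oxygen (normoxia) or 1% oxygen (hypoxia). There were 4 groups with 1 sample each: normoxic cells, hypoxic cells, and the exosome fraction precipitated with a polymer reagent from the medium of each. Exosomes are small secreted vesicles. All samples belonged to this single line, and the labels name no genetic change, drug or separate cultures. Values are threshold cycles (Ct), the PCR cycle at which the signal of a well crosses a threshold, so that a lower Ct means more template. A Ct of 35, the highest value in the data, was read as not detected. Each assay had 1 well per sample, so no difference between groups was tested and no p-value is given.

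miRNAs are short RNAs that guide the silencing machinery to messenger RNAs, mainly through the seed, bases 2 to 8 from the 5′ end. miR-99a, miR-99b and miR-100 belong to the ancient lineage of miR-10 and miR-100 and are known to repress MTOR, a kinase that drives cell growth. miR-125a-5p and miR-125b are the human counterparts of worm lin-4, a regulator of developmental timing. In B cells miR-125b is known to repress IRF4 and PRDM1, transcription factors of plasma cells, the cell type from which myeloma arises.

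The mature sequences of all 6 members were found in RefSeq (GRCh38.p14); an assay name without an arm was read as the 5p arm. They are shown with the seed in capitals, because the members fall into seed groups, and because miR-99a and miR-100 are nearly the same molecule.
hsa-miR-99a: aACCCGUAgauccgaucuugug
hsa-miR-100: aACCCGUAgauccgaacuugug
hsa-miR-99b: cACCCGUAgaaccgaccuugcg
hsa-miR-125b: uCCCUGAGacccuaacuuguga
hsa-miR-125a-5p: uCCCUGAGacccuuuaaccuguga
hsa-miR-125a-3p: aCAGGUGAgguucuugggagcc
Positions are counted from 1 at the 5′ end, with the base of the miRNA named first before the position. miR-99a and miR-100 differed by the single substitution U16A. miR-99a and miR-99b differed by A1C, U11A, U16C and U21C, of which none lies in the seed. miR-125a-5p and miR-125b shared their seed and were 3 edits apart. With names read in this way, no other assay among the 305 of the card that matched a mature sequence carried any of these 3 seeds. Whether each of those assays measures the 5p arm was not checked. miR-125a-3p, the other arm of the MIR125A hairpin, carried a seed of its own.

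The members are encoded beside each other and beside let-7 genes, in clusters that RefSeq places on GRCh38.p14. MIR99A (mature chr21:16539101-16539122, + strand) lies with MIRLET7C and MIR125B2 inside the span of the long noncoding RNA gene MIR99AHG. MIR100 (mature chr11:122152275-122152296, - strand) lies with MIRLET7A2 and MIR125B1 inside that of MIR100HG, also a long noncoding RNA gene. MIR99B (mature chr19:51692618-51692639, + strand) lies with MIRLET7E and MIR125A inside the protein-coding gene SPACA6, within 728 bases, while the clusters on chromosomes 21 and 11 span 51237 and 52552 bases. The position within exons or introns of these host genes was not analysed here. miR-125b has identical mature copies at chr11:122099809-122099830 and chr21:16590253-16590274, so its assay cannot be assigned to either gene. The MIR125A hairpin (chr19:51693254-51693339, + strand) is shown with both arms in capitals, since it was the only member hairpin assayed on both arms.
MIR125A hairpin: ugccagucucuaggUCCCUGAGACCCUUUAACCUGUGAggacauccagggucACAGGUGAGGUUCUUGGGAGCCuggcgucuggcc

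Across the card, 155 to 162 miRNAs had a Ct under 35 in the cell samples and 219 to 221 in the exosome samples, whose products alone had been pre-amplified per the labels' protocols. U6, the small nuclear RNA used to normalize the cells, had a mean Ct of 18.82 ± 0.15 at normoxia and 18.81 ± 0.12 at hypoxia (SD over the n = 4 wells of a card). The spike-in ath-miR159 gave 22.94 and 22.99 in the exosome samples. Between 53.7% and 71.6% of the detected wells of a sample, and 11 of the 21 detected member wells, lay within 0.1 of a whole cycle, a window that covers 20% of a cycle. All 5 blood and lymphoid marker assays, among them miR-142-3p and miR-150, were detected in every sample. Of 4 fibroblast and smooth muscle markers, miR-199a-3p was detected in every sample (Ct 32.5 to 33.0 in cells, 25.9 in both exosome samples). miR-143 was seen in the hypoxic exosome fraction alone (Ct 34.0), and miR-145 and miR-214 stood at 35 throughout. Relative to each sample's median, the summed level of that list lay between 0.251 and 0.334 in cells and between 0.254 and 0.259 in the exosome samples.

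In cells, 5 of the 6 members were detected at either oxygen level, where 43.0% of all assays were detected in normoxia and 41.1% in hypoxia. In the exosome fraction it was 6 members in normoxia, against 58.6% of all assays, and 5 in hypoxia, against 58.1%. miR-125b, miR-99a and miR-100 were the abundant members, miR-99b stood lower, and the arms of the MIR125A hairpin came last.

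miR-125b had a Ct of 28.98 in cells at normoxia and 28.91 at hypoxia, and of 21.58 and 21.98 in the corresponding exosome samples. It had the lowest Ct of the group in all 4 samples and ranked 46 of 162, 43 of 155, 30 of 221 and 36 of 219 among the detected assays. miR-99a had a Ct of 29.64, 28.96, 22.98 and 22.89 in the same order of samples. miR-100 had a Ct of 29.52, 29.00, 22.97 and 22.84. The Ct values of miR-99a and miR-100 thus lay within 0.12 cycles of each other in every sample. In cells this was less than the SD of 0.19 that the U6 wells of the cell cards give for a difference between wells, and the exosome cards gave no such measure. Whether the assay of either miRNA also detects its 1-base relative was not tested. Both lay near a whole cycle in hypoxic cells (28.96 and 29.00) and in the normoxic exosome fraction (22.98 and 22.97). Many Ct values of the card gathered there, and the bearing of this on their closeness was not tested.

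miR-99b, from the cluster on chromosome 19, had a Ct of 33.96 in cells at normoxia and 33.79 at hypoxia, and of 26.86 and 27.12 in the exosome samples. It ranked 133 of 162 and 129 of 155 in cells but 106 of 221 and 115 of 219 in the exosome fraction. miR-125a-5p, processed from the neighbouring hairpin, had a Ct of 34.37, 33.97, 31.98 and 31.73. In cells it followed miR-99b by 0.41 cycles in normoxia and by 0.18 cycles in hypoxia, and only the first gap exceeded 0.19. That SD was measured on the abundant U6 and not at Ct values near 35. In the exosome fraction the gaps were 5.12 and 4.61 cycles. miR-125a-3p stood at 35 in both cell samples and in the hypoxic exosome fraction, and at 33.00 in the normoxic exosome fraction, 1.02 cycles above miR-125a-5p. PCR assays differ in efficiency, so the order is one of Ct and not of copies.

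**Figure D1:**
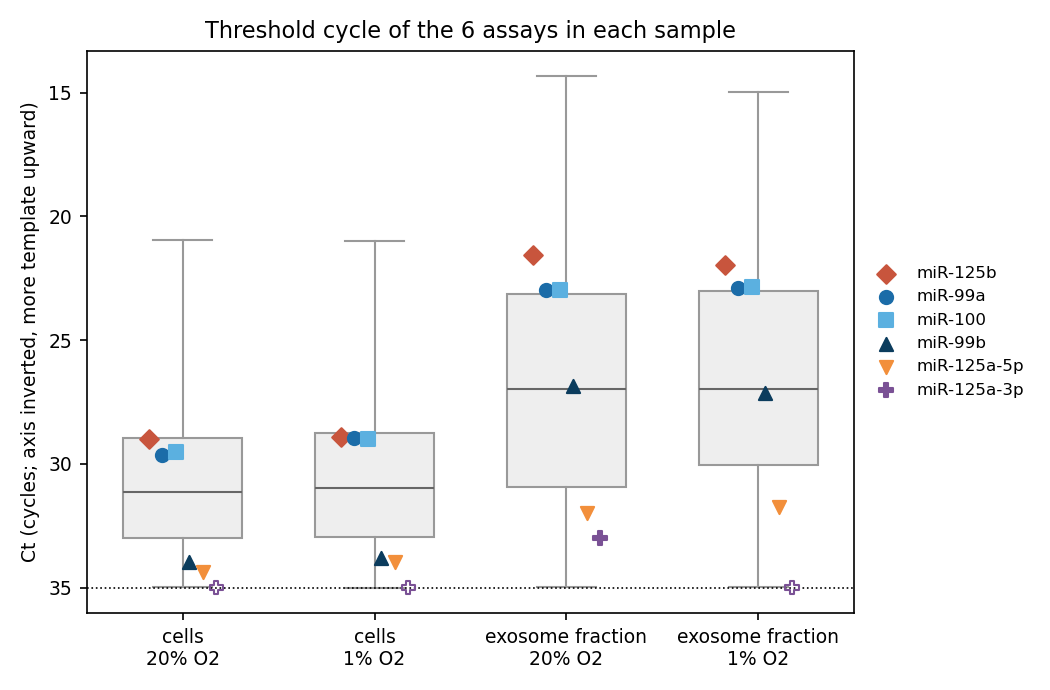
Ct in cycles on an inverted axis, for the 4 samples along the horizontal axis. Coloured points are the 6 members, with open points at 35 for not detected; grey boxes give the median, quartiles and full range of all detected miRNA assays. miR-125b, miR-99a and miR-100 lie near the upper quartile in every sample, miR-99b moves from below the box in cells to the median in the exosome fraction (Ct 26.86 and 27.12), and miR-125a-5p stays below the box throughout.

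The first comparison asked how the members differed between hypoxic and normoxic cells. All 5 members measured in both cell samples were higher in hypoxia after normalization to U6, none of them by 2-fold. Past 2-fold in either direction were 13.6% of the 147 miRNAs measured in both samples. miR-99a was 1.59-fold higher in hypoxic cells (0.67 on the log2 scale) and miR-100 was 1.43-fold higher (0.51). miR-125a-5p was 1.31-fold higher (0.39), miR-99b 1.12-fold (0.17) and miR-125b 1.05-fold (0.07). The median log2 change of the 5 members was 0.39, beside 0.03 over the 147 miRNAs, of which 55.1% were above 0. The changes of miR-99a, miR-100 and miR-125a-5p exceeded 0.19, the SD of a difference between U6 wells, and those of miR-99b and miR-125b did not. This SD comes from an abundant RNA within a card and leaves out any spread between cultures. Differences between like wells can pass 1 SD, so it marks no limit between change and noise. It was not measured at high Ct values such as those of miR-125a-5p in cells (34.37 and 33.97). With the small nucleolar RNAs RNU44 and RNU48 as normalizers, miR-125b was lower in hypoxia (-0.08) and 4 of 5 members stayed higher.

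The second comparison asked the same of the exosome fraction, with the spike-in as normalizer. None of the 5 members measured in both exosome samples was past 2-fold, where 7.39% of 203 miRNAs were. At hypoxia miR-125a-5p was 1.24-fold higher (0.31 on the log2 scale), miR-100 1.14-fold (0.19) and miR-99a 1.11-fold (0.15). miR-125b was 1.27-fold lower (-0.35) and miR-99b 1.16-fold lower (-0.21). The members' median log2 change was 0.15, beside -0.07 over the 203 miRNAs, of which 41.9% were above 0. All these values rest on 1 spike-in well per sample. With the median of the miRNAs as normalizer the log2 changes were 0.51 for miR-125a-5p, 0.39 for miR-100, 0.35 for miR-99a, -0.01 for miR-99b and -0.15 for miR-125b. miR-125a-3p, seen in normoxia alone, was at least 3.86-fold lower in hypoxia, a bound against Ct 35 that rests on 1 well at Ct 33.00. With this bound included, the members' median was -0.03 in place of 0.15. No control RNA was detected in more than 1 well of an exosome sample, so these changes have no measured spread. In bulk material like this, fewer vesicles and fewer copies per vesicle cannot be told apart.

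Set side by side, the log2 change in the exosome fraction (spike-in) was below that in cells (U6) for all 5 members. The gap ran from 0.09 for miR-125a-5p to 0.52 for miR-99a. The same direction held for 65.9% of the 138 miRNAs detected in all 4 samples. The difference was -0.33 for miR-100, -0.38 for miR-99b and -0.41 for miR-125b, with a median of -0.38 for the members and -0.17 for the 138 miRNAs. None of these differences reached 2-fold, which 15.9% of the 138 miRNAs did. The direction for miR-125a-5p depended on the normalizer. With RNU44 and RNU48 its change in cells was 0.24, below its 0.31 in the exosome fraction, while the other members kept their direction. With the median of the miRNAs as normalizer in both compartments its difference was -0.18. The exosome changes have no measured spread, so none can be set beside these differences.

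**Figure D2:**
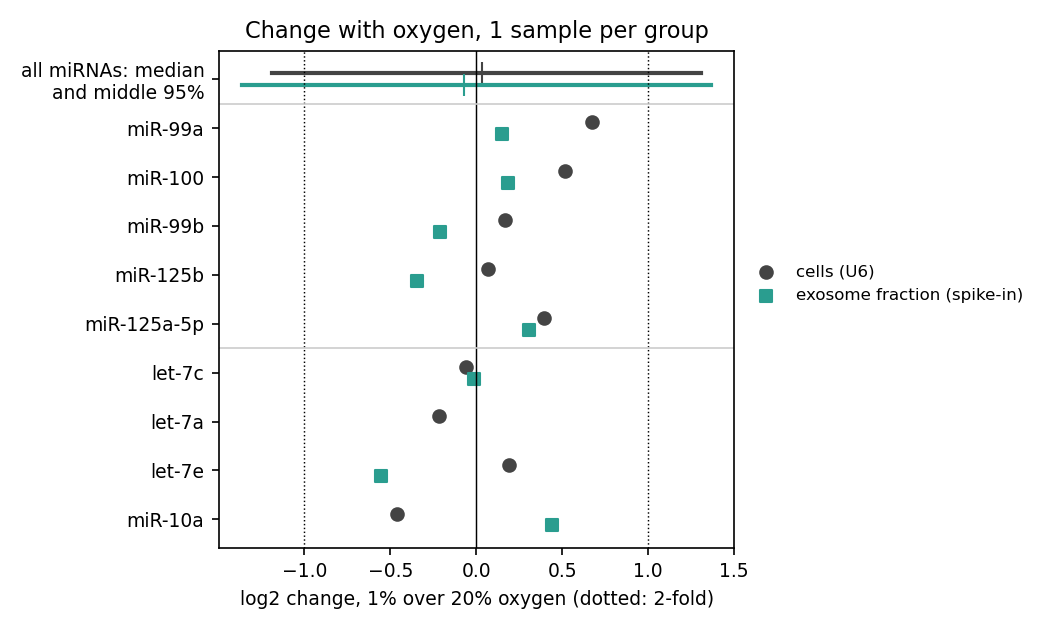
log2 change from 20% to 1% oxygen on the horizontal axis, in cells (circles, normalized to U6) and in the exosome fraction (squares, normalized to the spike-in), for 5 members, the let-7 cluster partners and miR-10a; bars at the top give the median and middle 95% of all measured miRNAs. Every member lies inside the 2-fold lines, with miR-99a at 0.67 and miR-100 at 0.51 in cells as the points farthest to the right.

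The ratio of 2 members within a sample needs no normalizer, so the neighbours in each cluster were set against each other. On the log2 scale the ratio of miR-99a to miR-125b was -0.66 at normoxia and -0.05 at hypoxia in cells, and -1.40 and -0.91 in the exosome samples. It was thus higher in hypoxia by 0.60 in cells and by 0.50 in the exosome fraction. For miR-100 over miR-125b the shifts were 0.44 in cells and 0.53 in the exosome fraction. Both shifts in cells exceeded 0.27, the SD that the U6 wells of the cell cards give for a difference of differences over 4 wells. It leaves out any spread between cultures, and as 1 SD it marks no limit between change and noise. The shifts in the exosome fraction have no measured spread. The 4 shifts are not independent, because both ratios use the same miR-125b wells. In hypoxic cells miR-99a, miR-100 and miR-125b all lay near a whole cycle (28.96, 29.00 and 28.91). The bearing of the gathering at whole cycles on the shifts was not tested. A ratio to miR-125b that was higher in hypoxia in both compartments was found for 38.0% of the other 137 miRNAs detected in all 4 samples. On chromosome 19, miR-99b over miR-125a-5p was lower in hypoxia by 0.23 in cells and by 0.52 in the exosome fraction, and the shift in cells was within 0.27. miR-99a over miR-100 shifted by 0.16 in cells, within 0.27, and by -0.04 in the exosome fraction.

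**Figure D3:**
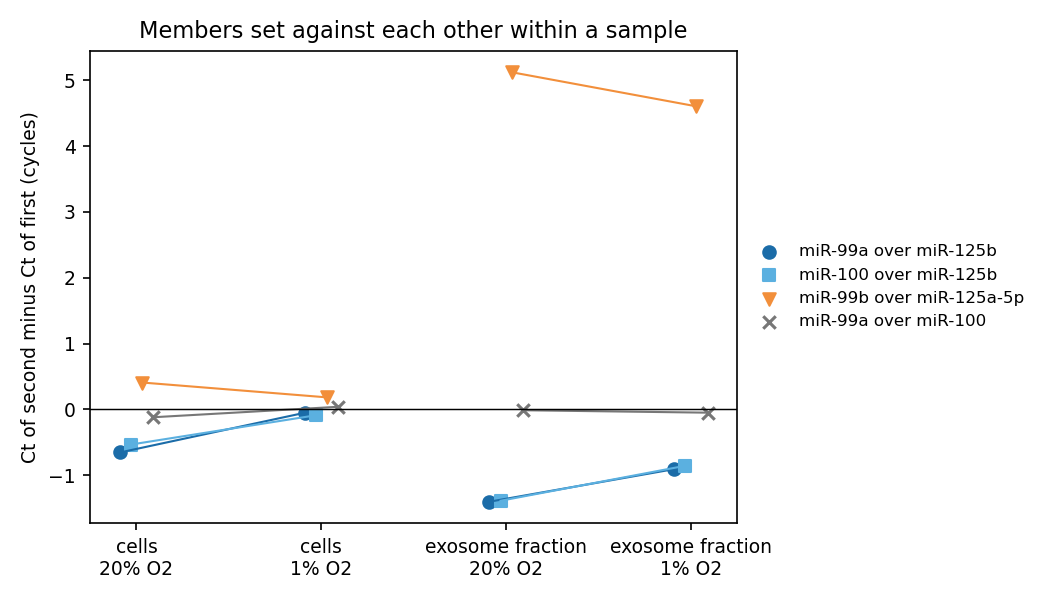
Ct of the second miRNA minus Ct of the first, in cycles, for 4 pairs of members in the 4 samples; higher means relatively more of the first, and lines join the oxygen levels within a compartment. miR-99a and miR-100 rise against miR-125b from 20% to 1% oxygen in both compartments, their own ratio stays between -0.12 and 0.04, and miR-99b over miR-125a-5p is 5.12 and 4.61 cycles in the exosome fraction against 0.41 and 0.18 in cells.

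The third comparison set the exosome fraction against the cells, after each sample was centred on its median Ct over the 138 miRNAs detected in all 4 samples (30.91 and 30.97 in cells, 23.96 and 23.99 in the exosome fraction). miR-125a-5p was the member that stood apart. It was 23.7-fold lower in the exosome fraction than in cells at normoxia and 26.8-fold lower at hypoxia, which placed it at ranks 6 and 5 from the lowest of the 138 miRNAs. The other 4 members lay between -0.40 and 0.45 on the log2 scale at normoxia and between -0.91 and -0.05 at hypoxia. miR-125a-5p was the only 1 of the 5 measured members that was 4-fold or more lower in the exosome fraction at both oxygen levels, which 16.7% of the 138 miRNAs were. Its cell wells were close to the ceiling (Ct 34.37 and 33.97), and with Ct under 32 required in all 4 samples it was no longer measured and no member was 4-fold lower. No member was 4-fold or more higher at both, which 2.90% were.

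In Ct, miR-125a-5p came up 2.38 cycles earlier in the exosome fraction than in cells at normoxia and 2.24 cycles earlier at hypoxia. For miR-99b, which had nearly the same Ct in cells, the steps were 7.10 and 6.66 cycles. For miR-125b, with the same seed, they were 7.40 and 6.93 cycles. miR-99a (6.65 and 6.07) and miR-100 (6.55 and 6.16) lay close to these. Without any normalizer, the ratio of miR-99b to miR-125a-5p exceeded that in cells by 4.72 on the log2 scale in the normoxic exosome sample and by 4.42 in the hypoxic one, and that of miR-125b to miR-125a-5p did so by 5.02 and 4.69. Pre-amplification was applied to the exosome products alone, so that an assay's response to it and the content of the fraction cannot be told apart. miR-125a-3p was not detected in cells, and no ratio can be given for it. With the mean in place of the median as centre, miR-125a-5p stayed lower (-3.91 and -3.81 on the log2 scale), while the other 4 members were all above 0 at both oxygen levels, against 2 above 0 at normoxia and 0 at hypoxia with the median. The direction for those 4 members therefore depends on the centre.

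**Figure D4:**
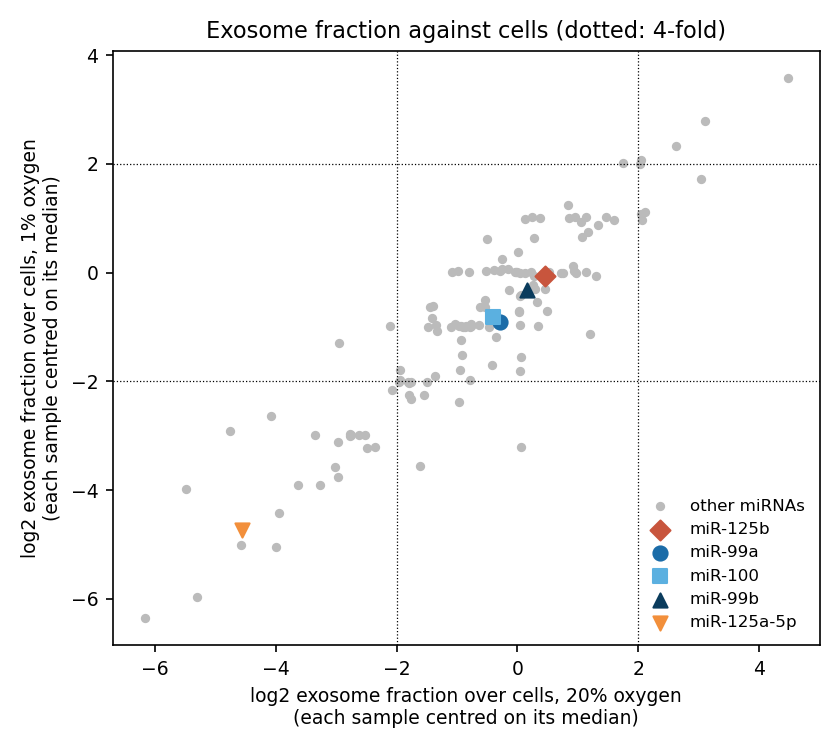
log2 of exosome fraction over cells at 20% oxygen (horizontal) and 1% oxygen (vertical), each sample centred on its median Ct; grey points are the other miRNAs among the 138 detected in all 4 samples and dotted lines mark 4-fold. miR-125a-5p lies at -4.57 and -4.74, apart from the other 4 members, which lie near the middle of the cloud.

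The let-7 miRNAs of the same clusters, which share a seed of their own, were fixed as a list of cluster partners. let-7e, between MIR99B and MIR125A, had a Ct of 28.96 and 28.77 in cells and of 22.37 and 22.98 in the exosome fraction. The log2 ratio of miR-99b to let-7e was -5.0 at both oxygen levels in cells, and -4.48 and -4.14 in the exosome samples. let-7c, beside MIR99A, had 30.91 and 30.96 in cells and 23.92 and 23.98 in the exosome fraction. let-7a, made from 3 loci of which MIRLET7A2 lies beside MIR100, had 30.76 and 30.97 in cells and stood at 35 in both exosome samples. After median centring let-7a was at least 2338-fold lower in the exosome fraction at normoxia and at least 2066-fold lower at hypoxia, each bound from 1 well. Other assays of the card were likewise detected in both cell samples and at 35 in both exosome samples, and their share was not computed. Only the exosome products were pre-amplified, so a failure of the let-7a assay after that step and a lack of let-7a in the fraction cannot be told apart. Its sequence differs from that of let-7c only by A19G and from that of let-7e only by U9G. These sequences are printed to show how close the 3 are, with the seed in capitals.
hsa-let-7a: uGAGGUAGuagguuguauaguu
hsa-let-7c: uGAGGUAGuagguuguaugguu
hsa-let-7e: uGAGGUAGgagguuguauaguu
None of the cluster partners was past 2-fold with oxygen where both samples measured it. In cells let-7e changed by 0.19, let-7c by -0.06 and let-7a by -0.22 on the log2 scale. In the exosome fraction let-7c changed by -0.01 and let-7e by -0.55. In cells, miR-99a over let-7c was higher in hypoxia by 0.73 and miR-100 over let-7a likewise by 0.73. Both exceeded 0.27, the U6 well SD of a difference of differences, which as 1 SD marks no limit between change and noise. In hypoxic cells miR-99a, miR-100, let-7c and let-7a all lay near a whole cycle (28.96, 29.00, 30.96 and 30.97). The bearing of this on the shifts was not tested, nor whether these assays detect 1-base relatives. No share over other miRNAs was computed for these ratios. In the exosome fraction miR-99a over let-7c was higher by 0.16, and miR-100 over let-7a could not be given. miR-99b over let-7e shifted by -0.02 in cells and by 0.34 in the exosome fraction.

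Of the miR-10 relatives, miR-10b stood at 35 in all 4 samples. miR-10a, which is 3 edits from miR-100 but has a different seed, had a Ct of 34.54 and 34.99 in cells and of 29.03 and 28.64 in the exosome fraction. With hypoxia it changed on the log2 scale by -0.46 in cells and by 0.44 in the exosome fraction, opposite in sign to the changes of miR-99a and miR-100 in cells.
hsa-miR-10a: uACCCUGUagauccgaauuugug

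Profiles over the 4 samples were compared by the Euclidean distance between Ct values after each assay's mean was subtracted, among the 138 miRNAs. Of all 137 others, miR-100 was nearest to miR-99a and miR-99a nearest to miR-100, at 0.12 cycles. The next for miR-99a were miR-885-5p (0.27), miR-204 (0.27) and miR-320 (0.42), and the same 3 were the nearest non-members of miR-100. miR-885-5p and miR-204 had a Ct of 34.97 and 34.99 in normoxic cells, just below the ceiling. For miR-125b the nearest were miR-660 (0.16), miR-532-5p (0.16) and miR-222 (0.20), and for miR-99b miR-18a (0.11), miR-146a (0.11) and miR-195 (0.14). miR-125a-5p had miR-362-5p (0.27), miR-142-3p (0.74) and miR-9 (0.90) as its nearest. Members encoded in a common cluster were farther apart. miR-125b came at place 60 among the 137 miRNAs ordered by nearness to miR-99a (0.97 cycles), and miR-99a at place 55 from miR-125b. miR-125a-5p came at place 133 among those ordered by nearness to miR-99b (4.59 cycles), and miR-99b at place 87 from miR-125a-5p. The miR-125b assay cannot be assigned to either of its genes, so its profile belongs to no single cluster.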

How the data were processed

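The authors deposited Ct values per well (not normalized) and a table of ratios of hypoxia over normoxia. Per the labels' protocols, RNA was reverse transcribed with Megaplex pools and read on TaqMan array cards on a 7900HT cycler, and Data Assist 3.1 was used; the origin of the value 35 is not stated in those protocols. The authors' deposited ratio and the recomputed one differed by at most 0.00017 on the log2 scale for members measured in both samples.

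Log2 changes were minus the difference in Ct between hypoxia and normoxia, after subtraction of the mean of the 4 U6 wells (cells) or of ath-miR159 (exosome fraction), for assays with Ct under 35 in both samples. An assay at 35 in 1 sample has a bound. The members and lists were chosen with earlier results of these data known. Named miRNAs are the members, cluster partners, miR-10 relatives, marker lists and, per member, the 3 nearest profiles. The marker lists also held the myeloid miR-223, detected in all 4 samples (Ct 31.7 and 31.9 in cells, 25.6 and 26.0 in the exosome fraction). The endothelial marker miR-126 had a Ct of 26.0 in both cell samples, and of 21.6 and 22.0 in the exosome fraction. Relative to each sample's median, its level was 30.6 in normoxic and 32.1 in hypoxic cells, and 4.98 and 4.04 in the corresponding exosome samples. The summed level of the blood and lymphoid list was 96.8 and 108 in cells and 44.4 and 38.2 in the exosome samples. The liver marker miR-122 and the red cell markers miR-486-3p and miR-486-5p stood at 35 throughout. The red cell marker miR-451 was seen in the normoxic exosome fraction alone (33.2). Of the muscle markers, miR-1 was detected in both exosome samples (33.1 and 32.1). miR-133a was detected in all but normoxic cells (33.0 in hypoxic cells, 27.9 and 28.1 in the exosome fraction). Ct values carry no counts, so no counting interval applies. The calculation of changes with oxygen was run on simulated data with planted 4-fold changes and the noise of the U6 wells. Such a simulation checks the arithmetic alone. It says nothing about changes under 2-fold, like those of the members measured in both samples, or about noise at high Ct. Python 3.11.15 with pandas 2.3.3 was used.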

Additional observations from a re-analysis of the deposited data

Results flagged for a closer look

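miR-99b and miR-125b had values of opposite sign in the compartments: 0.17 and 0.07 on the log2 scale with hypoxia in cells, and -0.21 and -0.35 in the exosome fraction. Both cell values lay within 0.19, the SD of a difference between U6 wells. With the median of the miRNAs as normalizer the exosome values were -0.01 for miR-99b and -0.15 for miR-125b. The exosome change minus the cell change was -0.38 for miR-99b and -0.41 for miR-125b. With 1 sample per group the difference was not tested, and the cell change of miR-125b was negative with RNU44 and RNU48 as normalizers (-0.08).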

How the results depend on the processing

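Each value was recomputed with other normalizers, centres and Ct limits. In cells no member passed 2-fold with any normalizer or with 1 U6 well left out (miR-99a from 0.64 to 0.73 on the log2 scale). With the median of the miRNAs as normalizer the exosome median over members was 0.35, from 0.15. With miR-125a-3p at its bound it was -0.03, and 1 member, miR-125a-3p itself, was past 2-fold. The share of 7.39% of 203 miRNAs past 2-fold leaves out assays at a bound. No share over all assays was computed on that basis. With the mean as centre the median of exosome fraction over cells became 0.36 at normoxia and 0.11 at hypoxia, from -0.30 and -0.82. With Ct under 32 required in all 4 samples, 3 members were left and the count of members 4-fold lower in the exosome fraction was 0, because miR-125a-5p was no longer measured. Of 143 recomputed values, 119 moved by less than the SD of 0.19 of a difference between U6 wells of the cell cards or, for counts, by no more than 1.5 times. Part of the 119 could not move. A limit of 2-fold in place of 4-fold enters only the count of members. A stricter Ct limit leaves the value of a member that passes it as it was. The authors' ratio repeats the main calculation. The 119 is therefore no measure of how robust the results are. No paired analysis was possible because each group is 1 sample; cells and exosome fraction form 1 pair at each oxygen level, and the differences of both pairs are given as values, with no test that takes the oxygen levels as replicates. The data are limited by 1 well per assay, by Ct values near the ceiling for miR-99b and miR-125a-5p in cells, and by Ct values that gather near whole cycles.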
